A study of Azumapecten farreri with 9 samples.

Results

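miR-1994 was represented by 2 of the 417 lines in the small RNA table of hemocytes, the circulating immune cells of the Zhikong scallop (Azumapecten farreri, also known as Chlamys farreri). The lines are mle-miR-1994a-3p, here the long form, and mle-miR-1994a-3p_R-2, here the short form. They were chosen by name, as every line whose name holds miR-1994, and were taken up because earlier results of the same table had shown them at different levels in the 3 groups. Their levels and the differences between groups are therefore a description. Where a fit over all lines called one of them, the call is part of what they were chosen on, and nothing is read from it.

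The libraries came from scallops injected with LPS-stimulated exosomes, with normal exosomes, or with phosphate-buffered saline (PBS), with 3 libraries in each group. Exosomes are small vesicles that cells release and other cells can take up, and LPS is lipopolysaccharide, a component of the outer membrane of Gram-negative bacteria. The LPS and normal exosome groups are named here for what was injected; no source used here gives the origin and dose of the vesicles, the time of sampling, or whether a library held 1 or several animals. The spread between libraries may therefore be technical.

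A microRNA guides an Argonaute protein to target messenger RNAs, mainly through its seed, the bases 2 to 8 from its 5′ end. The miR-1994 family is known from molluscs and annelids, and the prefix mle in the names stands for the sea slug Melibe leonina, whose registered miRNA the scallop sequence matched. The suffix 3p means the 3′ arm of the hairpin precursor, and R-2 means 2 bases fewer at the 3′ end than the registered form. Forms that differ only at the 3′ end keep the same seed. No role of miR-1994 in hemocytes is taken as known here.

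Both sequences are given because they show that the forms differ at the 3′ end alone. The seed is in capitals, and T stands for U as in the deposited table.
mle-miR-1994a-3p: tGAGACAGtgtgtcctcccttg
mle-miR-1994a-3p_R-2: tGAGACAGtgtgtcctccct
The long form has 22 bases and the short form 20, so the short form is the long form without its last 2 bases. Of the 417 lines, 116 had the length of the long form and 37 that of the short form. No other line had the seed GAGACAG at bases 2 to 8, held it elsewhere in its sequence, contained the short form or lay within the long form. The nearest other sequences were 3 lines at 8 edits, so 0 lines lay within the 4 edits set as the limit for a related line.

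The libraries held 7063405 to 15676183 inferred reads in the listed lines. Their deposited totals ran from 4002817 to 5277820 in the LPS exosome libraries, from 5479302 to 6337019 in the normal exosome libraries and from 4291842 to 5816235 in the PBS libraries, so every LPS exosome total lay below every normal exosome total. In a principal component analysis of the 162 tested lines, LPS exosomes replicate 1 lay farthest out on the first component (32.1% of the variance) and PBS replicate 1 on the second (22.7%). The 7 lines of the muscle miRNAs miR-1 and miR-133 summed to 138267 to 220526 in LPS exosome libraries, 179221 to 230147 in normal exosome libraries and 132632 to 206292 in PBS libraries, ranges that overlap in every pair of groups. The 3 lines of the neural miRNAs miR-9 and miR-124 summed to at most 8.74 in any library. Whether muscle or neural RNA has a part in the miR-1994 levels was not tested.

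The long form was a moderately abundant miRNA of these hemocytes. It stood between rank 28 and rank 39 of the 417 lines in each library, with 0.0456% ± 0.0198 of the deposited signal (SD, n = 9). The short form stood between rank 35 and rank 49, with 0.0203% ± 0.00810 of the signal. The long form rested on 2150 to 6630 inferred reads per library and the short form on 1072 to 3418. Just above the long form in mean level over the 9 libraries were mle-miR-31-5p, at 2680 ± 1471, and PC-3p-308_7012, at 2530 ± 658 normalized counts. Just below the long form, at 2251 ± 824, were lgi-miR-1985_R-1, at 2119 ± 628, and mle-miR-317-3p_2ss21CT23AT, at 2034 ± 487 (SD, n = 9 each). These neighbouring levels differed by less than their spread over the libraries.

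The 3 LPS exosome libraries held 2073, 2167 and 2649 normalized counts of the long form, the normal exosome libraries 1220, 1197 and 1544, and the PBS libraries 2843, 3081 and 3483. No library of 1 group reached into the range of another: PBS libraries were the highest, LPS exosome libraries lay between, and normal exosome libraries were the lowest. The group means were 2296 ± 309 with LPS exosomes, 1320 ± 194 with normal exosomes and 3136 ± 323 with PBS (SD, n = 3 each). The normal exosome and PBS libraries were the farthest apart, as the lowest PBS library held 1.84 times the value of the highest normal exosome library. The lowest LPS exosome library held 1.34 times the highest normal exosome library, whereas the lowest PBS library held 1.07 times the highest LPS exosome library.

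Of the short form, the LPS exosome libraries held 949.7, 922.0 and 909.0 normalized counts, the normal exosome libraries 608.3, 628.9 and 866.8, and the PBS libraries 984.6, 1569 and 1796. The groups fell in the same order as for the long form and again did not overlap, but the gaps were narrow. The closest LPS exosome and normal exosome libraries differed 1.05-fold, and the closest PBS and LPS exosome libraries 1.04-fold. The means were 926.9 ± 20.8 with LPS exosomes, 701.4 ± 144 with normal exosomes and 1450 ± 419 with PBS (SD, n = 3 each). The 3 LPS exosome libraries were thus close together, and the PBS libraries were spread widely, with PBS replicate 1 the lowest of them. Both forms summed to 3023, 3089 and 3558 with LPS exosomes, 1828, 1826 and 2410 with normal exosomes, and 3828, 4651 and 5279 with PBS, again without overlap.

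**Figure D1:**
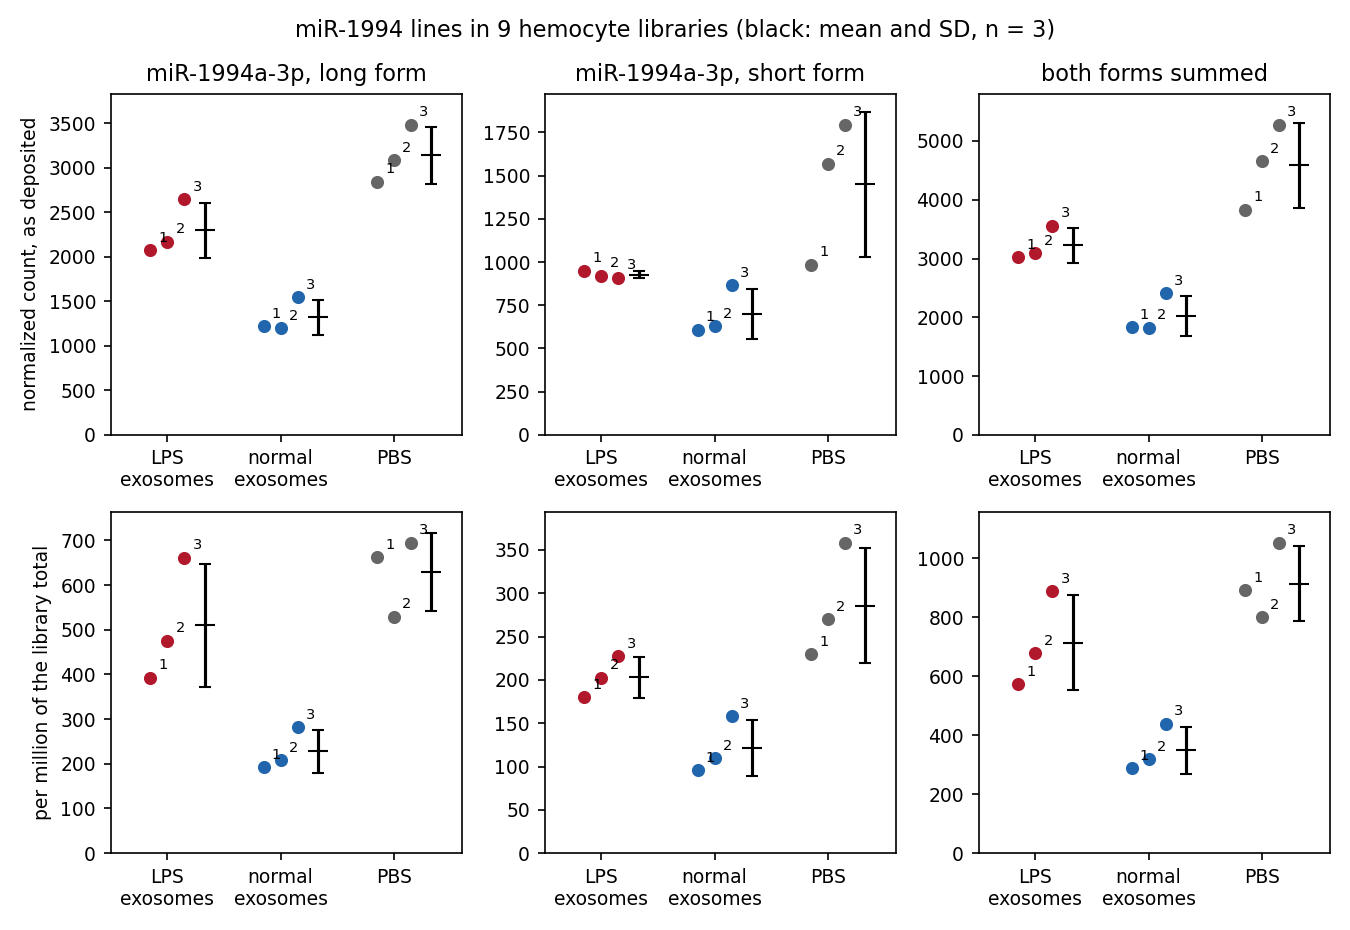
Level of the long form, the short form and their sum in each of the 9 libraries, as deposited normalized counts (top row) and in ppm of the library total (bottom row). Points are libraries with their replicate number, and black bars are the group mean and SD (n = 3). As deposited, the long form stands at 2073 to 2649 with LPS exosomes, 1197 to 1544 with normal exosomes and 2843 to 3483 with PBS.

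A separation of just 2 groups was not rare: all normal exosome libraries lay below all PBS libraries in 20 of 162 lines (12.3%), all LPS exosome libraries below all PBS libraries in 28 (17.3%), and all LPS exosome above all normal exosome libraries in 20 (12.3%). A full separation of the 3 groups in the order PBS, LPS exosomes, normal exosomes was found in 3 of the 162 lines tested, or 1.85%. These were the 2 miR-1994 forms and PC-5p-2220_666, a predicted candidate with no registered name, which stood at 87.5 to 101 with LPS exosomes, 47.7 to 73.2 with normal exosomes and 113 to 177 with PBS. Since the miR-1994 lines were chosen with their levels known, nothing is read from their place in this count. The 2 forms were read in the same libraries from sequences that share 20 bases, so they are not independent of each other.

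Between normal exosomes and PBS, the difference in mean log2(value + 1) was -1.25 ± 0.15 for the long form and -1.02 ± 0.25 for the short form (SE from the spread within the 3 groups, n = 3 each). On this scale the PBS level was 2.38 times the normal exosome level for the long form and 2.03 times for the short form. Among the differences of all 162 lines, whose median was -0.00, the long form was the eleventh lowest and the short form the fourteenth lowest. In limma's fit over all lines, 4 of the 162 (2.47%) were called lower with normal exosomes than with PBS at an adjusted p under 0.05. The long form was 1 of the 4, and the short form was not. The call of the long form is among the results by which miR-1994 was chosen. It was kept in 19 of 20 alternative settings and lost with quantile normalization, while the short form was called in 2 of the 20.

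Between LPS exosomes and PBS, the difference in mean log2(value + 1) was -0.45 ± 0.15 for the long form and -0.60 ± 0.25 for the short form (SE, n = 3 each). The median over all 162 lines was -0.06. Counted from the lowest of these differences, the long form was at place 47 and the short form at place 41. In limma's fit 2 of the 162 lines (1.23%) were called lower with LPS exosomes than with PBS, and neither miR-1994 form was among them. This comparison and the previous one use the same 3 PBS libraries.

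Between LPS exosomes and normal exosomes, the difference in mean log2(value + 1) was 0.80 ± 0.15 for the long form and 0.42 ± 0.25 for the short form (SE, n = 3 each), where the median over all 162 lines was -0.15. The long form was thus 1.74 times and the short form 1.34 times as high with LPS exosomes as with normal exosomes. Counted from the highest of the 162 differences, the long form was at place 20 and the short form at place 39. In limma's fit 6 of the 162 lines (3.7%) were called higher with LPS exosomes than with normal exosomes, and the long form was 1 of the 6 while the short form was not. This comparison too is among those by which miR-1994 was chosen, and the call was kept in only 8 of 20 alternative settings. Among the settings that lost the call were leaving out any 1 of the LPS exosome libraries, normal exosomes replicate 1 or 2, or PBS replicate 2 or 3. A call for 1 form and not for the other does not show that the forms differ. In these bulk samples, fewer cells that carry miR-1994 and less miR-1994 per cell cannot be told apart.

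**Figure D2:**
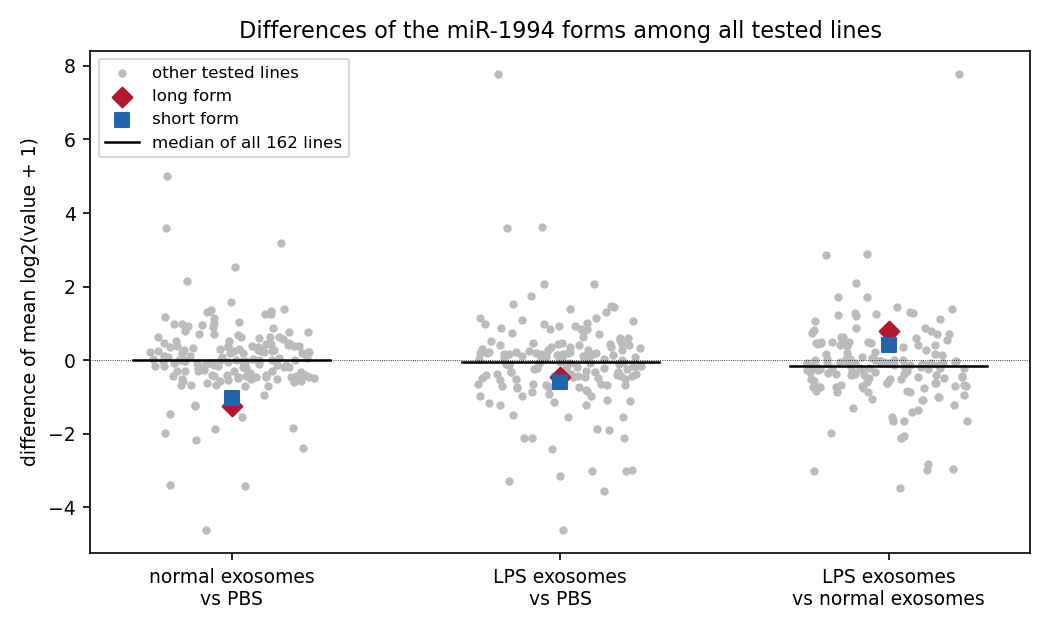
Difference of mean log2(value + 1) between groups for all 162 tested lines (grey points, spread sideways for legibility), the long form (red diamond) and the short form (blue square), with the median of all lines as a black bar. Against PBS both forms lie below the median, at -1.25 and -1.02 with normal exosomes and at -0.45 and -0.60 with LPS exosomes; between LPS exosomes and normal exosomes they lie above it, at 0.80 and 0.42.

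The order of the groups depended in part on the scaling of the libraries. With each value expressed in ppm of its library total, the long form stood at 393, 476 and 662 ppm with LPS exosomes, 193, 209 and 282 ppm with normal exosomes, and 663, 530 and 695 ppm with PBS. The normal exosome libraries remained the lowest and apart from both other groups, whereas LPS exosomes replicate 3 now lay above PBS replicate 2. On this scale all normal exosome libraries lay below all PBS libraries in 28 of the 162 lines (17.3%), and all LPS exosome above all normal exosome libraries in 39 (24.1%). The short form stood at 180, 202 and 227 ppm with LPS exosomes, 96.0, 110 and 158 ppm with normal exosomes, and 229, 270 and 358 ppm with PBS. Its groups did not overlap, but the lowest PBS library was only 1.01 times the highest LPS exosome library. All LPS exosome libraries lay below all PBS libraries in 16 of the 162 lines (9.88%) on this scale. The short form was the 1 line of 162 (0.617%) with the full order at equal totals. Both forms summed to 889 ppm in LPS exosomes replicate 3 and 800 ppm in PBS replicate 2, so on this scale their sum overlapped between these groups.

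Scaling to equal totals moved the differences of the long form to -1.48 between normal exosomes and PBS, -0.33 between LPS exosomes and PBS, and 1.15 between LPS and normal exosomes, all in mean log2(value + 1). The same scaling moved the median of all 162 lines to -0.22, 0.11 and 0.16 in these comparisons. Relative to the medians, the long form was therefore low against PBS and high between the exosome groups under both scalings.

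The balance of the forms within a library does not depend on scaling. The short form made up 31.4%, 29.8% and 25.5% of both forms with LPS exosomes, 33.3%, 34.4% and 36.0% with normal exosomes, and 25.7%, 33.7% and 34.0% with PBS. Every normal exosome library thus had a higher share of the short form than every LPS exosome library, while the PBS libraries reached into both ranges. The mean shares were 28.9% ± 3.04 with LPS exosomes, 34.6% ± 1.35 with normal exosomes and 31.2% ± 4.71 with PBS (SD, n = 3 each).

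**Figure D3:**
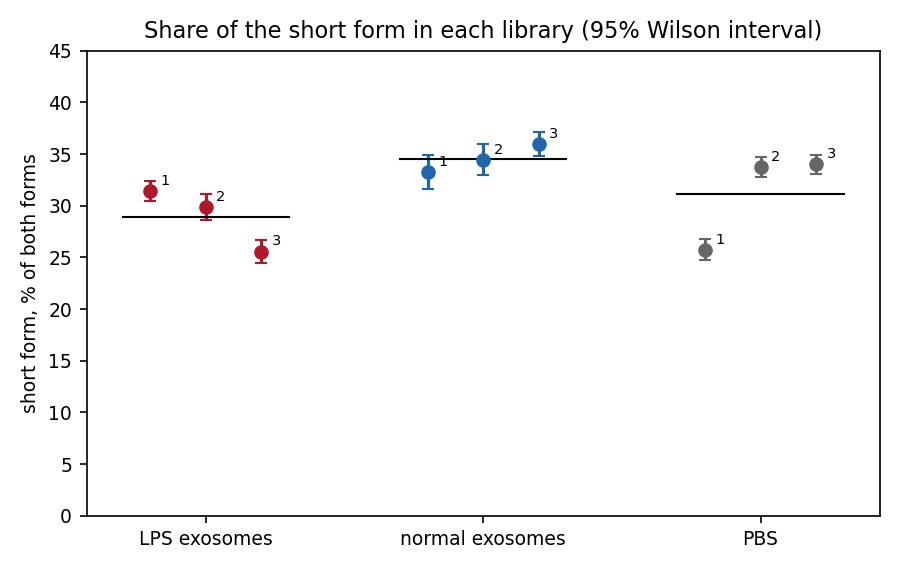
Share of the short form in the sum of both miR-1994 forms for each library, with its replicate number, a 95% Wilson interval from the inferred reads and the group mean as a black line. Shares run from 25.5% to 31.4% with LPS exosomes and from 33.3% to 36.0% with normal exosomes, and PBS replicate 1, at 25.7%, lies apart from the PBS replicates at 33.7% and 34.0%.

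LPS exosomes replicate 3 had a share of 25.5% (95% Wilson interval 24.5 to 26.6%) and PBS replicate 1 a share of 25.7% (24.7 to 26.8%). The lowest share among the other 7 libraries was 29.8% (28.6 to 31.1%), in LPS exosomes replicate 2. Reads without molecular identifiers are not independent molecules, so these intervals cover counting error only. The difference between LPS and normal exosomes was -5.62 ± 2.72 percentage points (SE, n = 3 each). Between normal exosomes and PBS it was 3.40 ± 2.72 percentage points, and 0.68 without PBS replicate 1. Between LPS exosomes and PBS it was -2.22 ± 2.72 percentage points, and with 1 library left out it ran from -4.94 without PBS replicate 1 and -3.46 without LPS exosomes replicate 1 to -0.93 and -0.80 without PBS replicates 2 and 3 and -0.53 without LPS exosomes replicate 3.

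Few other pairs of a longer and a shorter form in the table had a share between 10% and 90%. Among the tested lines there were 19 other pairs in which 1 sequence is the 5′ part of another and at least 1 of them was above 0 in every library. Some lines, such as mle-miR-2a-3p_R-6_1ss16GT, belonged to more than a single pair, so the pairs are not independent of each other. In these the shorter form held a mean share of 0.164% to 99.96%, with a median of 96.8%, and it held between 10% and 90% in 2 pairs. These were cte-miR-92b_2ss10GC11TG with its longer form PC-3p-66_67138, at 83.9% ± 0.935, and bmo-miR-281-3p_L-2_1ss20CT with its longer form, at 43.0% ± 33.6 (SD, n = 9 each), both named after their values were seen. In 1 of the 19 pairs, as in miR-1994, every normal exosome library lay above every LPS exosome library. This was mle-miR-1989b-5p_1ss11TC with its longer form PC-5p-5000_271, where the shorter form held 92.4%, 88.9% and 91.2% with LPS exosomes against 94.5%, 96.4% and 95.6% with normal exosomes. In 12 of the 19 pairs, as in miR-1994, the share in PBS replicate 1 lay below those in both other PBS libraries.

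Lines with a profile like that of the long form were found by the root-mean-square distance between log2(value + 1) values over the 9 libraries, each line centred on its own mean. The short form was nearest, at a distance of 0.25, and the median of the other 160 tested lines was 0.80. Then came cte-miR-278_R-1_1ss20TC at 0.26, PC-5p-2220_666 at 0.32, mle-miR-279-3p_R-1 at 0.41 and mle-miR-281-5p_1ss10TC and mle-miR-34-5p at 0.44 each. Libraries and their scaling are shared by all lines, and the distances are descriptions of these 9 libraries.

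The sequences of the 5 lines are given to set their seeds, in capitals, beside the seed of miR-1994.
cte-miR-278_R-1_1ss20TC: tCGGTGGGactttcgttcgct
PC-5p-2220_666: tTTCGGACcgctctggaccttc
mle-miR-279-3p_R-1: tGACTAGAtccacactcatcc
mle-miR-281-5p_1ss10TC: aAGGGAGCacccgtcgacagt
mle-miR-34-5p: tGGCAGTGtggttagctggttgt
None of the 5 seeds equalled that of miR-1994, and they matched it at 1 to 3 of its bases, position by position. The longest stretch shared with the long form was 7 bases, in mle-miR-34-5p.

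The miR-278 line, of a family known in Drosophila for a role in energy balance, stood at 78.8 ± 8.55 with LPS exosomes, 42.8 ± 5.39 with normal exosomes and 131.9 ± 46.9 with PBS (SD, n = 3 each). It had the same order of group means as miR-1994 at a much lower level. The miR-279 line stood at 15520 ± 613 with LPS exosomes, 9084 ± 1210 with normal exosomes and 16251 ± 7828 with PBS, with PBS replicate 1, at 7905, below every exosome library. miR-34, a family known in vertebrates as a target of p53, stood at 649.6 ± 140, 464.3 ± 106 and 649.1 ± 172 in LPS exosomes, normal exosomes and PBS. The miR-281 line stood at 486.7 ± 52.4, 354.6 ± 29.6 and 454.8 ± 85.1 in the same groups, so in both of these lines the LPS exosome mean lay at or above the PBS mean.

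**Figure D4:**
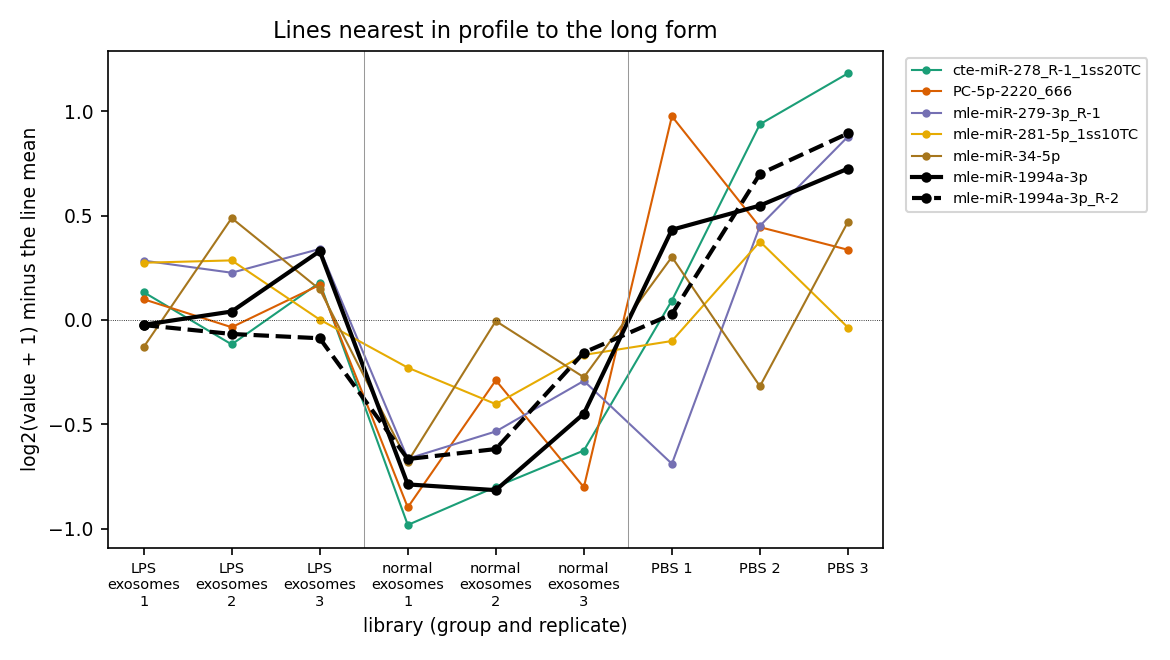
Centred log2(value + 1) of both miR-1994 forms (black, the short form dashed) and of the 5 other lines nearest to the long form, by library; the lines join libraries only to guide the eye. Both miR-1994 forms, the miR-278 line and PC-5p-2220_666 are below their means in all normal exosome libraries and above them in all PBS libraries. In contrast, mle-miR-279-3p_R-1 is lowest in PBS replicate 1.

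The miRNAs with the numbers miR-1984 to miR-1999, a block that contains many families of molluscs and annelids, had 7 lines besides miR-1994, from miR-1985, miR-1989, miR-1990 and miR-1991. Of these, 4 were tested in limma's fit, and the differences of all 4 against PBS were positive. With normal exosomes against PBS, 2 were called higher and 0 lower, where 3 of all 162 lines (1.85%) were called higher. With LPS exosomes against PBS, the same 2 were called higher and 0 lower, where 5 of 162 (3.09%) were called higher. Between LPS and normal exosomes 0 of the 4 were called and 0 had an unadjusted p under 0.05, where 7 of 162 (4.32%) were called in either direction.

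The called lines were lgi-mir-1990-p3_1ss20AT and mle-miR-1990-3p_1ss10TG, of which the second is the first without 1 end base. They stood at 9.07 to 13.8 with LPS exosomes and 5.59 to 15.4 with normal exosomes, and were listed at 0 in every PBS library. They rested on 12 to 44 inferred reads per exosome library. Both passed the filter on low values only through the exosome libraries, so their calls against PBS give no support read against the share of all lines. Neither was called against PBS without PBS replicate 2 or PBS replicate 3. With normal exosomes neither was called without any 1 of the normal exosome libraries or without LPS exosomes replicate 1, and with LPS exosomes neither was called without LPS exosomes replicate 1 or 2. Only 1 was called with normal exosomes without LPS exosomes replicate 2 or PBS replicate 1, and only 1 with LPS exosomes without normal exosomes replicate 2. Without LPS exosomes replicate 1 or 2 or normal exosomes replicate 2, mle-miR-1990-3p_1ss10TG did not pass the filter and was not tested. The median difference in log2(value + 1) of the 4 lines was 1.78 with normal exosomes against PBS, 2.20 with LPS exosomes against PBS and 0.38 between LPS and normal exosomes. Without the miR-1990 lines these medians were 0.33, 0.71 and 0.38.

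The remaining tested lines of this block did not share the order of miR-1994. mle-miR-1989b-5p_1ss11TC stood at 486.6 ± 50.1 with LPS exosomes, 367.0 ± 45.9 with normal exosomes and 281.2 ± 37.5 with PBS (SD, n = 3 each). Its differences in log2(value + 1) were 0.79 ± 0.22 with LPS exosomes (limma's SE; limma adjusted p = 0.0734) and 0.38 ± 0.22 with normal exosomes (limma adjusted p = 0.446), both against PBS. This SE is of another kind than those given above for miR-1994. On limma's footing the SE was 0.19 for the long form and 0.26 for the short form. lgi-miR-1985_R-1, the neighbour of miR-1994 in level, stood at 2567 ± 384, 2085 ± 725 and 1706 ± 589 in LPS exosomes, normal exosomes and PBS, with limma adjusted p of 0.285 and 0.691 against PBS. In both lines PBS had the lowest mean, whereas in both miR-1994 forms it had the highest. The miR-1991 lines and lgi-miR-1985_R+1 did not pass the filter on low values and reached at most 7.69 in any library.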

How the data were processed

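Hemocyte small RNA was prepared with a TruSeq kit, read on an Illumina HiSeq instrument and filtered by the ACGT101-miR program, per the labels' protocols. Aligner, genome build and normalization method: not given in the sources used here. No genome was used, so no positions are printed. The deposited signal values are normalized counts per the file headers, 1 per line and library. Of 1990 values above 0, 99.55% were whole multiples of 1 step per library within 0.01 steps, and this step was read as the worth of 1 read to infer reads and intervals. The lowest values above 0 stood at 5 steps in most libraries, so a value of 0 may hide a few reads.

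A line was tested if 3 or more libraries reached a value of 10, which left 162 of 417, both miR-1994 lines included. On log2(value + 1), the 3 group means were fitted in 1 limma model (version 3.58.1 under R 4.3.3; trend and robust options, statmod 1.5.0), and p-values were adjusted over the 162 lines by Benjamini-Hochberg with a threshold of 0.05. Fold differences on this scale understate changes of low lines. The limma fit, and not the inference of reads, was run on simulated data. The simulated noise was independent between lines, so that run does not show how the fit performs on these libraries.

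The members, lists and naming rule were chosen with earlier results of these data known. The rule named the miR-1994 lines, lines of like sequence, the 5 nearest in profile, the highest and the called lines with numbers from miR-1984 to miR-1999 (4 tested), and 2 neighbours in level on each side. The comparison of nested forms was added later. Alternatives changed scaling, pseudocount, filter, limma settings, the replicate block and the libraries used.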

Additional observations from a re-analysis of the deposited data

How the results depend on the processing

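The differences of the long form, the short form and their sum between groups were recomputed 141 times under other scalings, pseudocounts, a replicate block and subsets of libraries. Of these, 36 could not change by construction, as the replicate block or a left-out library of the third group leaves the difference as it is; of the other 105, 0 changed sign and 7 moved by more than 1 SD between replicates. With equal totals the long form differed by -1.48 (normal exosomes vs PBS) and 1.15 (LPS vs normal exosomes) in log2, the sum by -1.40 and 1.03, and the short form by 0.77 between LPS and normal exosomes. With quantile normalization the long form differed by -1.01 (normal exosomes vs PBS) and 0.54 (LPS vs normal exosomes). The cause of these shifts was not tested. Leaving out 1 library gave -1.37 to -1.17, -0.56 to -0.37 and 0.69 to 0.92 for the long form, -1.28 to -0.84, -0.86 to -0.42 and 0.33 to 0.58 for the short form, and -1.31 to -1.07, -0.62 to -0.39 and 0.61 to 0.81 for the sum, in the order normal exosomes vs PBS, LPS exosomes vs PBS, LPS vs normal exosomes. The share of the short form differed by 0.68 to 4.83, -4.94 to -0.53 and -6.86 to -3.93 percentage points in these comparisons. Without both libraries that lay farthest out, a setting chosen after seeing the data, the share differed by -6.18 percentage points between LPS exosomes and PBS.

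Counts of called lines moved more. Each comparison called 7 of 162 lines. Between normal exosomes and PBS there were 12 with equal totals, 2 with quantile normalization, 4 with no filter, 4 with a stricter filter and 3 with the replicate block. Between LPS exosomes and PBS there were 4 with the stricter filter and 3 with only those groups in the fit, and between LPS and normal exosomes 3 with quantile normalization and 2 without trend and robust settings. Leaving out 1 library gave 2 to 6, 0 to 10 and 1 to 10 calls. The count of 0 was for LPS exosomes vs PBS without LPS exosomes replicate 1 or 2 in limma's fit, with 21 and 23 lines at an unadjusted p under 0.05. Of the 4 tested lines numbered miR-1984 to miR-1999, 2 were called against PBS. With normal exosomes this became 1 with median-of-ratios scaling or pseudocount 10 and 0 with quantile normalization, no filter, the stricter filter or the replicate block. With LPS exosomes it became 1 with median-of-ratios scaling or quantile normalization and 0 with no filter, the stricter filter or only those groups in the fit. Leaving out 1 library gave 0 to 2 against PBS, and 0 to 0 between the exosome groups.

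Same-numbered libraries of different groups did not deviate together over the 162 lines (correlations of -0.30 to 0.29 across lines, median 0.08), so the replicate block rests on a shared number alone. Count models on inferred reads (edgeR, DESeq2) were planned and not run, because whole reads did not pass the criterion for recovery, which takes the lowest value as 1 read. Depth limits low lines such as miR-1990; the miR-1994 forms had at least 1072 inferred reads.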
